A study of Mus musculus with 2 samples.

Results

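The genes of bone morphogenetic protein (BMP), activin and transforming growth factor beta (TGF-beta) signalling were examined for peaks of N6-methyladenosine (m6A), a methyl mark within mRNA, in the mouse uterus of early pregnancy. The set held 53 genes: 15 ligands, 12 receptors, 8 Smads, 6 secreted antagonists and binding proteins, 4 latent TGF-beta binding proteins, 4 intracellular regulators and 4 Id target genes. A peak was counted for a gene when its summit, the position of highest enrichment, lay inside the span of that gene in the RefSeq annotation of GRCm38.p6, the assembly of mm10. By this rule 150 of the 38366 peaks in the authors' list (0.391%) belonged to the set, and 49 of the 53 genes held at least 1.

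Ligands of this family bind pairs of type I and type II receptor kinases at the cell surface. BMP receptors then phosphorylate Smad1, Smad5 and Smad9, activin and TGF-beta receptors phosphorylate Smad2 and Smad3, and either group enters the nucleus with Smad4. In the mouse uterus Bmp2 is needed for the stroma to form the decidua, the tissue that surrounds the implanted embryo, and Bmpr2 is needed to maintain it.

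Peaks came from methylated RNA immunoprecipitation sequencing (MeRIP-seq), in which RNA fragments bound by an anti-m6A antibody are sequenced beside RNA that was not selected. The m6A immunoprecipitation (IP) group was 1 library of whole uterus of C57BL/6 mice, for which uteri of gestation day 4 and gestation day 8 (GD4 and GD8) were pooled in equal amounts. The input group was 1 library of C57BL/6 whole uterus with no antibody, and its label names neither a day nor pooling. The series describes the mice as wild-type, so no allele or treatment separates the groups. Each peak is named with the prefix D8posIP-Neginput, where day 8 appears and day 4 does not, and only the sample label states the pooling. With 1 library per group no test between the groups was possible, and no value here has a replicate check. In bulk tissue, fewer cells of a type and less RNA per cell cannot be told apart.

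Over all 38366 peaks the median summit had 29 IP fragments over a local background of 3.33 scaled fragments, and the median fold enrichment was 6.16. Fold enrichment is the authors' ratio of IP fragments to local background at the summit, with 1 fragment added to each. The interval after a fold is the exact 95% Poisson interval of its IP fragments with the background held fixed, and it covers counting error only. A peak was present in 5 of 5 listed genes of uterine stroma, 4 of 4 of smooth muscle, 4 of 4 of epithelium, 3 of 3 of endothelium and 4 of 4 of decidua. Over all protein-coding genes the share with a peak was 55.7%. The decidua genes were Prl8a2, Prl3c1, Wnt4 and Bmp2, and Bmp2 is itself a member of the set. Of 4 trophoblast markers Cdx2 had a peak, at 4.79-fold, and Prl3d1, Tpbpa and Gcm1 had none. The 3 liver markers Apoa1, Ttr and Alb also had peaks, at 9.05-fold, 6.80-fold and 6.66-fold, and a peak therefore places no transcript in a cell type.

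The sequences below show 8 of the 11 annotated transcription starts that lay under peaks, because start peaks were present in some members of every role and absent from others. They are RefSeq sequences of GRCm38.p6, from the upstream edge of the peak to base 30 of the transcript. Each is written 5′ to 3′ on the strand of the gene. Capitals mark each match to DRACH, the letters around most m6A sites: first A, G or T, then A or G, then AC, then A, C or T. Matches were searched on the strand of the gene only, overlaps included. A match is a description of the letters and not a site. The 8 were picked after the sequences were seen, to show several roles. The starts of Tgfb1, Tgfbr2 and Smad3, which hold 0, 2 and 3 matches as far as the RefSeq promoter window reaches, are not printed.
Tgfb2, chr1:186705960-186706021, minus strand: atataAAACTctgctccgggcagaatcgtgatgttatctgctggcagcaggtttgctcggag
Inhbb, chr1:119422219-119422390, minus strand: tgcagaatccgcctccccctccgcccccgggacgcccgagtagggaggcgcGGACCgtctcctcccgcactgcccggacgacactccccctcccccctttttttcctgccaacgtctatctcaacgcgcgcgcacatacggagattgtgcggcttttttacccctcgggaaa
Bmpr2, chr1:59764269-59764308, plus strand: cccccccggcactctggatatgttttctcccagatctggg
Tgfbr1, chr4:47386091-47386245, plus strand: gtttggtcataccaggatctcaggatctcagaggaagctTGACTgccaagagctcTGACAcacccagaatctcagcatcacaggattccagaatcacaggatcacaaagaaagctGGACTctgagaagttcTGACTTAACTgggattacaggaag
Smad6, chr9:64022030-64022175, minus strand: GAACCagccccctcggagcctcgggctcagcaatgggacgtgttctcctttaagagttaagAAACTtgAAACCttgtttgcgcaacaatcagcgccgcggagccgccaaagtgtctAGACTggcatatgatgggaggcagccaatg
Ski, chr4:155222506-155222586, minus strand: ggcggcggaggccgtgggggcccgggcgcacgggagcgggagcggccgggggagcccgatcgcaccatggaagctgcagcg
Id2, chr12:25096063-25096113, minus strand: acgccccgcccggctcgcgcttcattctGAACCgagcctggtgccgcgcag
Id3, chr4:136143728-136143851, plus strand: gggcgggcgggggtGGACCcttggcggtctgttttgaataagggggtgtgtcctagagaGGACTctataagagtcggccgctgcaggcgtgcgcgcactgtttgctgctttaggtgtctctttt

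The first 50 bases downstream of a listed start lay wholly under a peak in 11 of the 36 peak-carrying members whose strand the RefSeq promoter table gives (30.6%). Over all peak-carrying protein-coding genes with a strand the share was 14.2%. The 11 were Tgfb1, Tgfb2, Inhbb, Bmpr2, Tgfbr1, Tgfbr2, Smad3, Smad6, Ski, Id2 and Id3. Of these 11 starts 6 held a DRACH match in their first 50 bases (54.5%), against 43.0% of all starts under a peak and 54.4% of all 32851 listed starts. The 6 were Tgfb2, Inhbb, Tgfbr1, Smad3, Smad6 and Id2. In windows of 250 bases before to 50 bases after a listed start, 98.4% held a match. Among the sequences above with a match, the share of all starts with one in the same positions ran from 53.7% for Id2 to 91.5% for Inhbb. No match was found in the Ski and Bmpr2 sequences above, whereas 69.8% and 46.0% of all listed starts hold one in the same positions. The Id3 sequence holds its matches upstream of the listed start, GGACC and GGACT, and its summit lay 90 bases downstream of that start. The only capitals in the Tgfb2 and Inhbb sequences, AAACT and GGACC, also lie upstream of the listed start. In these 2 genes the match counted in the first 50 bases ends past base 30 and is not printed.

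Across the set, 49 of 53 genes held a peak (92.5%), against 55.7% of 21787 protein-coding genes. A peak of at least 4-fold was present in the same number, 49 of 53, against 51.5% of protein-coding genes. At least 10-fold was reached by 19 (35.8%), against 17.5%. At least 2 peaks were present in 41 (77.4%), against 36.7%, and at least 5 in 9 (17.0%), against 8.33%. All these shares count genes without a peak in their base, so they repeat in part the difference in presence. Among peak-carrying genes, 19 of 49 members reached 10-fold, against 3812 of 12134 protein-coding genes. At least 2 peaks were then present in 41 of 49, against 7998 of 12134, and at least 5 in 9 of 49, against 1814 of 12134. The genes of the set were longer, with a median span of 39.4 kb against 17.2 kb for all protein-coding genes, and a longer span offers more room for a summit. Among genes of 10 to 100 kb span, 31 of 32 members held a peak (96.9%), against 63.7% of protein-coding genes. The shares may also depend on which genes are transcribed in this tissue, which was not tested because no expression values were used here.

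The height of the peaks stood closer to that of other genes than their presence did. The highest peak of each peak-carrying member had a median of 8.61-fold, against 8.04-fold over 12134 peak-carrying protein-coding genes. The median over all member peaks was 6.12-fold, against 6.09-fold over all peaks of protein-coding genes. Member peaks were more deeply covered, with medians of 45 IP fragments over a background of 6.18, against 32 over 3.95 for peaks of all protein-coding genes. The highest peak exceeded 8.04-fold in 28 members. Its whole interval lay above that median in 15, among them Inhba, Nog, Tgfbr3, Smad1, Smad5, Smad7, Smad9, Ski, Skil and Id3. It lay wholly below in 5: Bmpr1a, Acvrl1, Smad4, Fst and Chrd. In the other 29 the interval held the median, so counting error alone does not separate them from it. The same counts were not made over the 12134 genes, many of which must lie above their own median. Whether 15 above and 5 below is unusual for a set of this size is therefore not known.

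**Figure D1:**
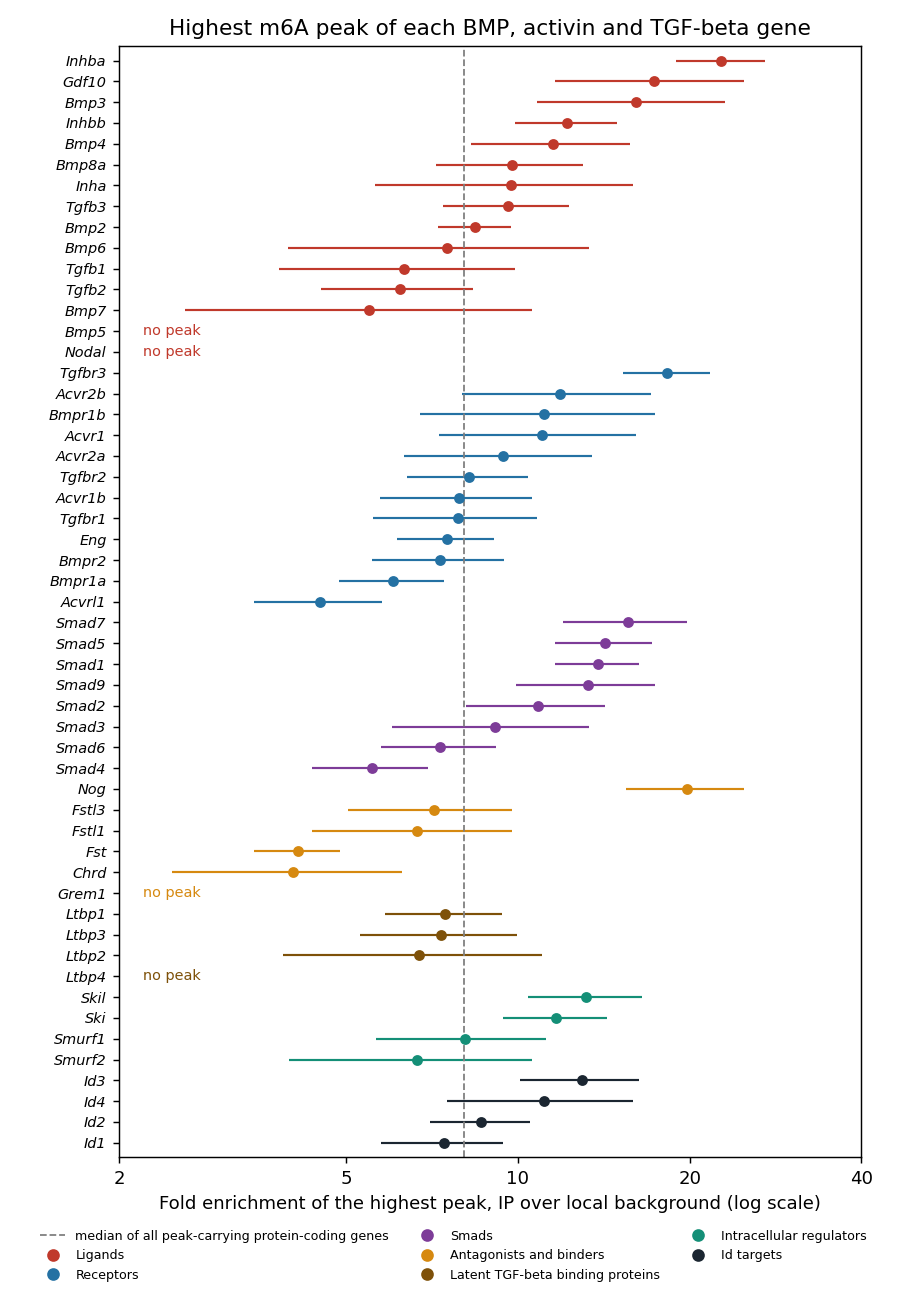
Fold enrichment of the highest peak of each of the 53 genes (horizontal log axis), grouped and coloured by role, with points at the authors' values, bars for exact 95% Poisson intervals and a dashed line at the median of all peak-carrying protein-coding genes, 8.04. Inhba at 22.7-fold, Nog at 19.8-fold and Tgfbr3 at 18.3-fold stand furthest right, and Bmp5, Nodal, Grem1 and Ltbp4 have no peak.

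By role, all 8 Smads, all 12 receptors, all 4 intracellular regulators and all 4 Id genes held a peak. So did 13 of 15 ligands, 5 of 6 antagonists and binding proteins and 3 of 4 latent TGF-beta binding proteins. The median of the highest fold was 12.1 in the Smads, 9.88 in the intracellular regulators, 9.87 in the Id genes, 9.72 in the ligands, 8.05 in the receptors, 7.34 in the latent TGF-beta binding proteins and 6.66 in the antagonists. Ranges overlapped widely: 5.54 to 15.6 in the Smads, 5.47 to 22.7 in the ligands, 4.49 to 18.3 in the receptors and 4.04 to 19.8 in the antagonists. These medians rest on 3 to 13 genes each and describe this pair of libraries. The place of the Smads holds for the highest peak alone. With the median over the peaks of each gene, the Smads had 6.02-fold, the ligands 6.90-fold, the receptors 6.30-fold and the antagonists 4.42-fold. Over all peaks of a role the medians were 6.11-fold in the Smads, 6.21-fold in the ligands and 6.10-fold in the receptors.

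Among the ligands Inhba carried the highest peak, and Inhbb the fourth after Gdf10 and Bmp3. Inhba, which encodes the subunit of activin A, had its highest peak at chr13:16026097-16027232, with 120 IP fragments over a background of 4.32. This was 22.7-fold (18.9 to 27.1), place 226 among all 12134 peak-carrying protein-coding genes. Its other peaks, at 9.64-fold (7.73 to 11.9) and 8.36-fold (6.40 to 10.7), had intervals below that of the highest. The 9.64-fold summit also lay in the span of B230303A05Rik, so it cannot be assigned to Inhba alone. Inhbb, which encodes the subunit of activin B, had 94 IP fragments over 6.79 in a 2086 base peak at chr1:119416149-119418234, or 12.2-fold (9.88 to 14.9). Its start peak had 28 over 2.47, or 8.36-fold (5.65 to 11.9), and a peak of 6.40-fold lay between them. Inha encodes the inhibin alpha subunit, which pairs with the activin subunits to give inhibins that oppose activin. Its peaks were thinner, with 14 fragments over 0.543 (9.72-fold, 5.61 to 15.9) and 10 over 0.976 (5.57-fold, 2.93 to 9.81).

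The weaker Inha summit lay inside the gene span but 233 bases upstream of its listed start, so the span of the table begins before that start. The 30 bases around this summit are shown because the position tells an upstream peak from one in the listed transcript. They hold no DRACH match. In the part of the same peak that the RefSeq promoter window covers 3 matches lay, the nearest of them 58 bases from the summit. In the same positions 40.7% of all listed windows hold a match.
Inha, chr1:75507361-75507390, plus strand: attcctagatgccttggggcccccagcaat

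Bmp2 combined many fragments with a high background. Its 5 peaks had 184, 142, 78, 192 and 111 IP fragments in the order of their position, over backgrounds of 21.0, 21.0, 16.1, 42.0 and 40.8. The folds were 8.41 (7.25 to 9.71), 6.50 (5.48 to 7.65), 4.63 (3.67 to 5.77), 4.49 (3.88 to 5.17) and 2.68 (2.21 to 3.22). The peak with the most fragments of any member, 192, thus had only the fourth fold within its gene. The highest peak, at chr2:133552182-133553589, overlapped in interval only with the second.

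Gdf10 and Bmp3, both divergent members of the BMP family, had high folds from few fragments. Gdf10 had 27 over a background of 0.618 at chr14:33932070-33932765, or 17.3-fold (11.6 to 24.9), and a further peak of 10.2-fold (6.87 to 14.5). Bmp3 had 27 over 0.741 at chr5:98872135-98872850, or 16.1-fold (10.8 to 23.1), and no other peak. Their intervals overlapped that of Inhba, which had 120 fragments.

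The remaining BMP ligands with a peak had lower highest folds than Gdf10 and Bmp3, but Bmp4 and Bmp8a stood above the 8.41-fold of Bmp2. The intervals of Bmp4, Bmp8a and Bmp6 overlapped those of Gdf10 and Bmp3. Bmp4 had 39 fragments over 2.47 in its higher peak, or 11.5-fold (8.28 to 15.7), and its weaker peak of 6.84-fold shared its position with Gm15222. Bmp8a had 6 peaks from 4.91-fold to 9.78-fold (7.19 to 13.0), of which the one of 5.94-fold also lay in Oxct2a. Bmp6 reached 7.53-fold (3.96 to 13.3) from 10 fragments and Bmp7 5.47-fold (2.61 to 10.6) from 7 fragments. Both of these stood at 0.462, the genome-wide background, as did the weaker Bmp4 peak and the 8.21-fold peak of Bmpr1b.

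The TGF-beta ligands, which share a receptor complex, had highest peaks of 6.21-fold to 9.61-fold. Tgfb3 had 62 fragments over 5.56, or 9.61-fold (7.40 to 12.3), and 6 peaks down to 2.86-fold. Tgfb1 had 3 peaks of 4.43-fold to 6.31-fold (3.82 to 9.89). Tgfb2 had 6 peaks, of which the one at its start was the highest at 6.21-fold (4.51 to 8.34), and its 2.15-fold peak (1.42 to 3.13) was the lowest of the whole set. The intervals of the 3 highest peaks overlapped.

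No peak was counted in Bmp5 and in Nodal, a ligand of early embryonic patterning. The nearest summit to Bmp5 lay 21806 bases past its end, at 23.3-fold in no annotated gene. The nearest to Nodal lay 6325 bases past its end, at 4.07-fold in Eif4ebp2. Lack of methylation, lack of the transcript and thin coverage would each leave a gene with no peak, and these cannot be told apart here.

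Among the receptors the coreceptor gene Tgfbr3 (betaglycan), which presents TGF-beta and inhibin to the signalling receptors, stood highest. It had 8 peaks, and the one at chr5:107208796-107209342 had 128 fragments over 6.06, or 18.3-fold (15.3 to 21.7). Its other 7 peaks ran from 3.22-fold to 6.41-fold, and the upper bounds of their intervals, at most 8.53, stayed below the lower bound of the highest. Tgfbr2, the type II receptor of TGF-beta, had the most peaks of the set, 9, from 2.81-fold to 8.20-fold (6.40 to 10.4). Their fragments ran from 28 to 156, and their backgrounds from 6.18 to 37.7. Tgfbr1, the type I receptor of TGF-beta, had 1 peak, 2330 bases wide, with 36 fragments over 3.71, or 7.86-fold (5.57 to 10.8). Its summit lay 367 bases downstream of the second start that RefSeq lists for this gene, at 54.1% of the gene span, and the sequence above belongs to that start.

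The activin receptors lay between 7.89-fold and 11.9-fold at their highest. Acvr2b, a type II receptor, had 27 fragments over 1.36, or 11.9-fold (7.97 to 17.1), and Acvr2a, also of type II, had 27 over 1.98, or 9.41-fold (6.31 to 13.5). Acvr1b, the type I receptor of activin, had 41 over 4.32, or 7.89-fold (5.72 to 10.6). These intervals overlapped. Acvr1, a type I receptor of BMPs that is needed for decidua formation in the mouse, had 25 over 1.36 at chr2:58462948-58463167, or 11.0-fold (7.28 to 16.1), and 60 over 10.5 near its end, or 5.30-fold (4.07 to 6.80).

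BMP receptors differed in depth more than in fold. Bmpr2, the BMP type II receptor, had 56 fragments over 6.79 at its start, or 7.31-fold (5.56 to 9.46). Nearer its end it had 125 over 22.9, or 5.28-fold (4.40 to 6.29), and 65 over 12.4, or 4.94-fold (3.83 to 6.28). The type I receptor gene Bmpr1a had 87 over 13.6, or 6.03-fold (4.85 to 7.43), in its only peak, whereas Bmpr1b, also of type I, had 17 over 0.618, or 11.1-fold (6.74 to 17.4). Acvrl1 (ALK1), a type I receptor of endothelium, had the lowest highest peak of the receptors, 4.49-fold (3.44 to 5.78) from 59 fragments over 12.4. Eng, the endothelial coreceptor endoglin, reached 7.52-fold (6.15 to 9.09) from 104 over 13.0.

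The Smads that BMP receptors phosphorylate each had a highest peak near the middle of the gene, of 13.3-fold to 14.2-fold. Smad1 had 132 fragments over 8.65 at chr8:79371774-79372535, or 13.8-fold (11.6 to 16.3). Smad5 had 101 over 6.18 at chr13:56723332-56723970, or 14.2-fold (11.6 to 17.2), and Smad9 had 50 over 2.84 at chr3:54781976-54782743, or 13.3-fold (9.92 to 17.4). The summits lay at 44.6%, 52.3% and 58.2% of the span, and the intervals overlapped. In Smad1 and Smad9 the other 4 and 3 peaks were lower, with upper bounds of at most 8.29 and 6.76. Smad5 had no other peak.

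The Smads of the activin and TGF-beta branch had lower highest folds, within counting error of those of the BMP branch. Smad2 had 50 fragments over 3.71, or 10.8-fold (8.10 to 14.2), and Smad3 had 25 over 1.85, or 9.11-fold (6.02 to 13.3). Both intervals overlapped those of Smad1, Smad5 and Smad9, so counting error alone does not separate the branches. Smad3 had its highest peak at its start, and its peak near the end, 3291 bases, was the widest of the set. Smad4, the partner of both branches, had 73 over 12.4, or 5.54-fold (4.36 to 6.95), and its interval lay below those of Smad1, Smad2, Smad5, Smad7 and Smad9.

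The inhibitory Smads, which are induced by the pathway and act back on the receptors, also carried peaks. Smad7 had 64 fragments over 3.17, or 15.6-fold (12.0 to 19.8), the highest of the Smads, and 93 over 8.65 in a neighbouring peak of 9.75-fold (7.89 to 11.9). Smad6 had 74 over 9.26 in a 1932 base peak at its start, or 7.31-fold (5.76 to 9.15), and 102 over 16.1 at its end, or 6.04-fold (4.93 to 7.32). The intervals of the highest peaks of Smad7 and Smad6 did not overlap.

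Among secreted antagonists noggin stood apart. Nog, which encodes an inhibitor that binds BMPs and keeps them from their receptors, had a single peak of 1910 bases at chr11:89300748-89302657. The peak reached beyond the gene span of 1922 bases, which runs from 89300638 to 89302559. This Nog peak had 70 fragments over 2.59, or 19.8-fold (15.5 to 24.9). Chrd (chordin), another BMP inhibitor, reached 4.04-fold (2.48 to 6.26) from 18 over 3.71. Grem1 (gremlin), also a BMP inhibitor, had no peak, and the nearest summit lay 39047 bases past its end in Fmn1 at 3.95-fold.

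Fst and the end of Fstl1 had low folds over high backgrounds, while Fstl3 and the start of Fstl1 did not. Fst, which encodes follistatin, the binder of activin, had 130, 122 and 78 fragments over 30.9, 40.1 and 24.7, or 4.11-fold (3.44 to 4.87), 2.99-fold (2.49 to 3.56) and 3.07-fold (2.44 to 3.83). Fstl3, a follistatin-like binder of activin, had 36 over 4.20, or 7.12-fold (5.04 to 9.78). Fstl1, a secreted glycoprotein related to follistatin, had 154 fragments near its end over 61.8, the highest background of any member peak, and so only 2.47-fold (2.10 to 2.89). At its start it had 24 over 2.75, or 6.66-fold (4.36 to 9.78). The end summit lay also in Gm41452.

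Latent TGF-beta binding proteins hold newly made TGF-beta in the matrix. Ltbp1 reached 7.46-fold (5.85 to 9.39) from 71 fragments, Ltbp3 7.34-fold (5.28 to 9.97) from 39 and Ltbp2 6.71-fold (3.87 to 11.0) from 14. Their intervals overlapped. Ltbp4 had no peak in its span, and the nearest summit lay 2610 bases before its start in Shkbp1, at 6.57-fold.

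The intracellular regulators restrain Smad signalling, Ski and Skil as nuclear corepressors and Smurf1 and Smurf2 as ubiquitin ligases. Skil had a pair of peaks at 13.2-fold, with 126 fragments over 8.65 (11.0 to 15.7) and 74 over 4.69 (10.4 to 16.5), and 4 more down to 4.28-fold. Ski had 8 peaks, of which the start peak at chr4:155221384-155222586 had 90 over 6.79, or 11.7-fold (9.41 to 14.3). Smurf1 had 4 peaks, all in the last 5000 bases of the gene, up to 8.07-fold (5.63 to 11.2), and Smurf2 had 2 near its middle, up to 6.65-fold (3.97 to 10.6).

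The Id genes encode inhibitors of basic helix-loop-helix transcription factors and are direct targets of BMP Smads. Id3 had 71 fragments over 4.57 at its start, or 12.9-fold (10.1 to 16.3), and 79 over 16.7 near its end, or 4.53-fold (3.60 to 5.63). Id2 had 98 over 10.5 at its start, or 8.61-fold (7.01 to 10.5), and 98 over 19.8 near its end, or 4.77-fold (3.88 to 5.80). In both genes the fragments were alike and the background differed. Id1, for which no strand was listed, had 66 over 8.03 (7.42-fold, 5.76 to 9.41) and 62 over 12.2 (4.76-fold, 3.67 to 6.08). Id4 had a single peak, with 28 over 1.61, or 11.1-fold (7.52 to 15.9).

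Of the 41 members with 2 or more peaks, 9 had a highest peak whose interval lay above the intervals of all their other peaks. They were Inhba, Acvr1, Tgfbr3, Smad1, Smad2, Smad7, Smad9, Id2 and Id3. In the other 32 the highest peak was not separated by counting error from at least 1 other. The same count was not made over the 7998 protein-coding genes with 2 or more peaks. The 9 are therefore not shown to be more than in other genes. The most peaks were in Tgfbr2 with 9, then Tgfbr3 and Ski with 8 each.

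**Figure D2:**
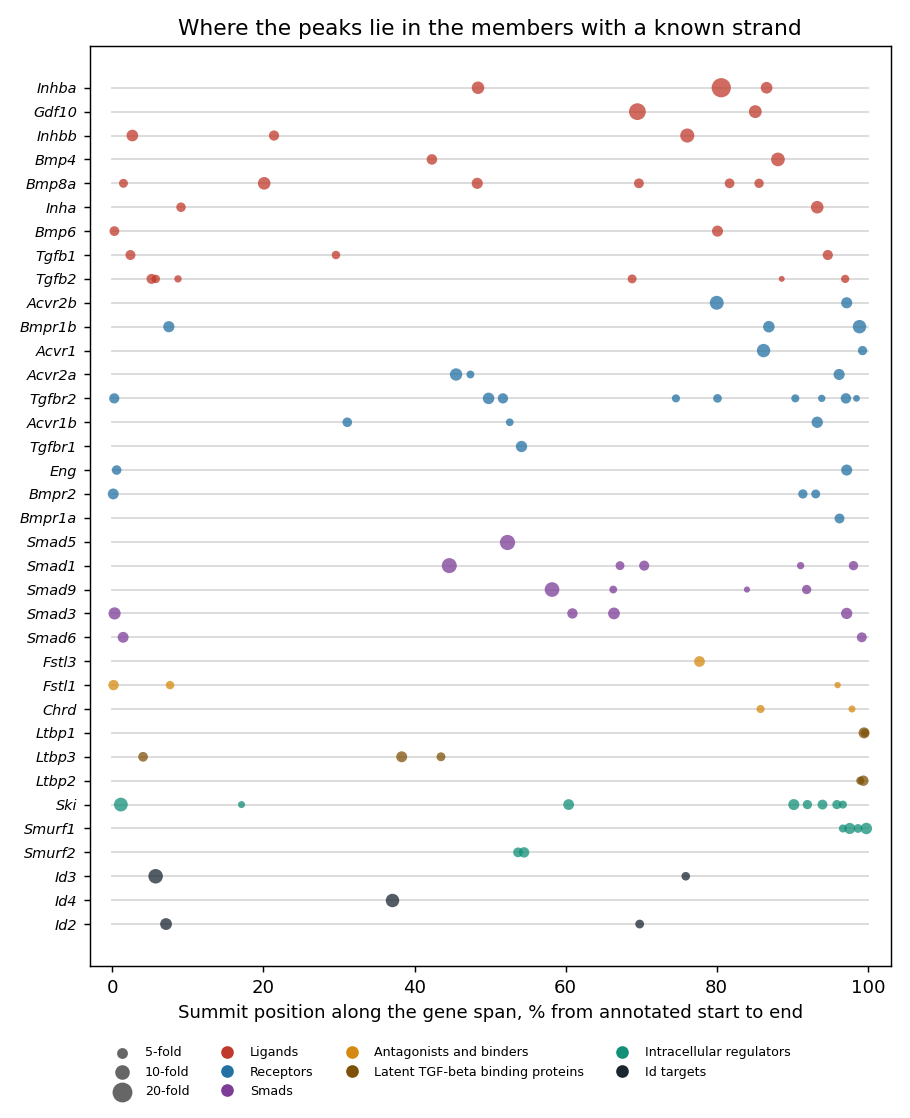
Position of each peak summit along the gene span, in % from annotated start (left) to end (right), for the 36 peak-carrying members whose strand is known; the area of a point stands for fold enrichment and the colour for the role. Highest peaks lie at the start in 9 genes such as Id3 and Ski, in the interior in 12 such as Smad1, Smad5 and Smad9, and near the end in 15 such as Gdf10 and Smurf1. The same split of highest peaks over all stranded protein-coding genes is not given here, so these counts are not shown to differ from other genes. They use distances in bases from a listed start or the gene end, not the % shown. Tgfbr1, at 54.1%, thus counts as start and Gdf10, at 69.5%, as end.

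Position was taken for the 106 summits in members with a strand. The 13 members without a listed strand are left out, among them Bmp2. Nog, Tgfbr3, Bmp3, Smad7 and Skil, which are among the 10 highest members by fold, are left out as well. A summit up to 1000 bases downstream of a listed start, and nearer to it than to the end, was put in the start zone, and one within 5000 bases of the gene end in the end zone. In genes of a few kb, such as the Id genes and Inha, these zones cover the whole gene. The Inha summit upstream of its listed start, at 9.09% of the span, was thus counted in the end zone. The start zone held 16 of 106 summits (15.1%), against 11.6% of summits in all stranded protein-coding genes. The end zone held 42 (39.6%), against 39.8%, and the interior held 48 (45.3%), against 48.7%. Within the set the start zone held 5 of 29 ligand summits, 4 of 29 receptor summits and 2 of 16 Smad summits, too few to rank the roles. Whether an interior summit lay in an exon or an intron was not analysed here.

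The median start peak of the members had 39 fragments over 4.45, against 22 over 1.85 for start peaks of all stranded protein-coding genes. Their median folds were 6.98 in the members and 7.26 in all such genes. At the end zone the medians were 52 over 6.86 in the members, against 41 over 6.18 in all such genes, with median folds of 6.17 and 5.56.

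A peak in the start zone and another in the end zone were present in 12 members. The start peak had the higher fold in 7 of 12 (58.3%), against 64.7% of 2157 such protein-coding genes. The start peak had the lower background in 11 of 12 (91.7%), against 91.1%. Both shares stood near those of other genes. In Fstl1, Ski, Id2 and Id3 the start interval lay wholly above the end interval, and in the other 8 the intervals overlapped. How often such intervals part in the 2157 genes was not counted. Ski had 90 fragments over 6.79 at the start and 53 over 8.03 near the end, or 11.7-fold (9.41 to 14.3) and 5.98-fold (4.51 to 7.79). Tgfb1 was the exception in background, with 8.65 at its start and 1.85 near its end. What part the lower background had in the higher folds at starts was not tested.

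**Figure D3:**
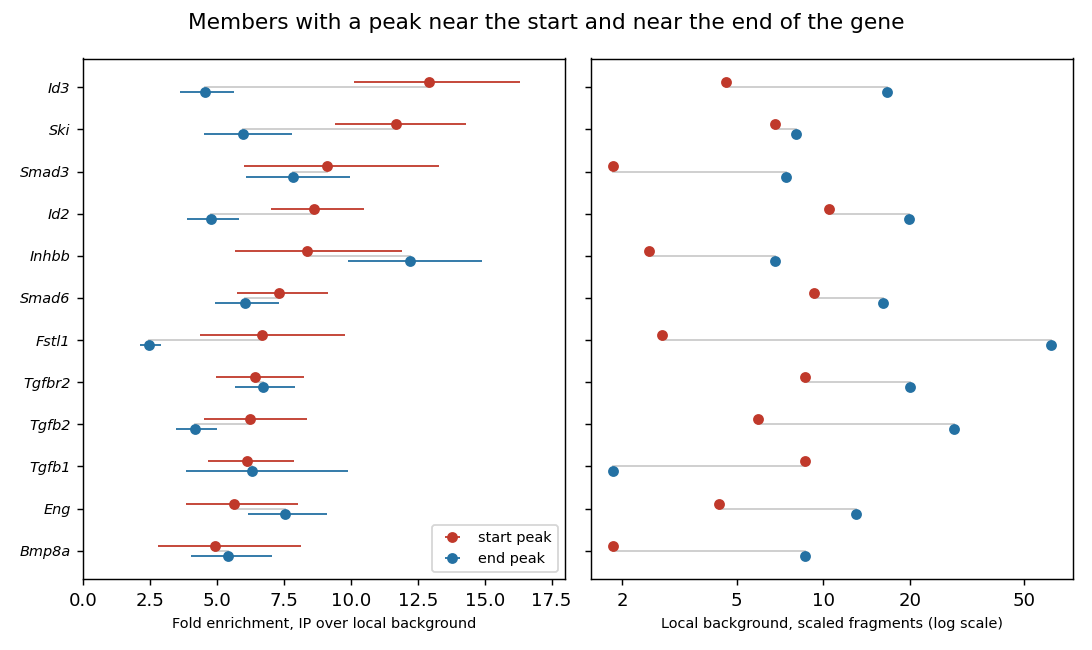
Fold enrichment with exact 95% Poisson intervals (left, linear axis) and local background in scaled fragments (right, log axis) of the start peak (red) and the highest end peak (blue) in the 12 members that had both. Start intervals lie above end intervals in Id3, Ski, Id2 and Fstl1, and the start background is the lower in every gene but Tgfb1.

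Peaks just outside the spans were not counted, and 19 lay within 5000 bases of a member. The counted summit nearest to a span end was that of Bmp7, 48 bases inside, with 7 fragments and 5.47-fold. The nearest outside was 21 bases before the start of Smad1, with 20 fragments over 1.33, or 9.0-fold (5.66 to 13.7). Bmp6 had summits 81 and 454 bases before its start, with 17 fragments over 0.988 (9.05-fold, 5.48 to 14.2) and 37 over 0.618 (23.5-fold, 16.7 to 32.1). The 23.5-fold was above that of any counted member peak. Others included a summit 636 bases before Tgfb1, inside B9d2, at 17.5-fold (13.1 to 23.1), and one 1899 bases past the end of Bmp8a, in no annotated gene, at 8.38-fold (7.19 to 9.72) from 173 fragments.

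The Bmp6 and Smad1 peaks nearest to their starts reached across the start, and the letters under them are shown because they join upstream and transcribed sequence. They are RefSeq sequences of GRCm38.p6, from the upstream edge of the peak to base 30 of the transcript, with DRACH matches in capitals. The Bmp6 sequence holds 5 matches and the Smad1 sequence none, where 91.0% and 86.8% of all listed starts hold at least 1 in the same positions.
Bmp6, chr13:38345578-38345745, plus strand: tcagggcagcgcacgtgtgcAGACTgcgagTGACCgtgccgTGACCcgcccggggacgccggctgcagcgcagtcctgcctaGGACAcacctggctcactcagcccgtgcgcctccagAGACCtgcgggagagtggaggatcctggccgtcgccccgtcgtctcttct
Smad1, chr8:79399399-79399539, minus strand: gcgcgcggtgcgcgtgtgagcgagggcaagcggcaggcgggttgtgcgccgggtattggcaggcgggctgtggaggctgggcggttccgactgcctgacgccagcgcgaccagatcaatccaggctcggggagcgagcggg

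Of 64 other genes of the pathway, 43 held a peak (67.2%), below the 92.5% of the set and above the 55.7% of all protein-coding genes. Their highest peaks had a median of 9.05-fold. The highest were in Lemd3, an inner nuclear membrane protein that binds Smads, at 39.7-fold (31.4 to 49.6), Gdf7, a BMP ligand, at 20.7-fold (16.0 to 26.4), Bmper, a BMP-binding protein, at 17.1-fold (11.2 to 25.1), Crim1 at 16.4-fold (12.4 to 21.4) and the kinase Map3k7 (TAK1) at 15.7-fold (10.7 to 22.3). The Bmper peak stood at the genome-wide background with 24 fragments. The 21 without a peak included the ligands Bmp10, Bmp15, Gdf3, Gdf6, Gdf9, Gdf15, Mstn, Amh, Lefty1 and Lefty2 and the receptors Amhr2 and Acvr1c. The rest of the 21 were Tdgf1, Chrdl1, Chrdl2, Sost, Sostdc1, Cer1, Kcp, Itgb6 and Wwp1.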

How the data were processed

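The members, lists and zones were chosen with earlier results of these data known. Per the labels' protocols, total RNA was extracted with TRIzol and made into libraries with the NEBNext Ultra II Directional kit. HISAT2 2.2.1, MACS3 3.0.0a7 and the build mm10 are named in the submitters' processing notes, with settings not given in the sources used here. In the authors' files, the deposited peak list gives fold enrichment as a ratio, −log10 p and −log10 q values and a display score, all as the authors' caller wrote them. The list gives no strand. IP fragments and local background were recovered per peak from the fold, taken with 1 added to both terms, and from the p-value, taken as an upper Poisson tail. The recovered pairs matched 100% of the deposited −log10 p values to within 0.001, and the step was tested on simulated data. Intervals reflect counting error alone, since PCR copies are not separate molecules. Library totals are unknown.

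Gene spans came from RefSeq (GRCm38.p6; 49632 genes, 365 rows outside the first run of each chromosome left out), and strands and starts from its promoter table, which matched 40 of the 53 members and 80.3% of protein-coding genes. Of the member summits, 5 lay in 2 genes. No test was run. Named were the 3 highest members per role, Bmp2, Inhba, Bmpr2, those with most peaks and those without; others were chosen after their values were seen. The planned motif search at all summits and the exon regions were not run, since no genome was used here; motifs were searched only in the RefSeq promoter windows, which hold 1 Inha summit. The tools were scipy 1.17.1, pandas 2.3.3, numpy 2.4.6, matplotlib 3.10.9 and Python 3.11.15.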

Additional observations from a re-analysis of the deposited data

How the results depend on the processing

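No paired analysis was possible because each group holds 1 library. The 49 members with a peak and the counts by role were unchanged under 6 alternatives. These were a minimum −log10 q of 5, a minimum fold of 4, overlap of 1 base or of 50% of the peak, merging of same intervals, and summits in 1 annotated gene. The 150 peaks became 142 at −log10 q of at least 5, 130 at a fold of at least 4 and 145 in 1 annotated gene. They became 154 with overlap of 1 base and 152 with overlap of 50%. With the median over the peaks of a gene in place of its highest, the medians were 6.26-fold for the members, against 8.61, 6.02-fold for the Smads, against 12.1, 6.90-fold for the ligands, against 9.72, 6.30-fold for the receptors, against 8.05, and 4.42-fold for the antagonists, against 6.66. The Smads then stood below the ligands and receptors. Ranked by −log10 q, 6 of the 10 highest members were also among the 10 highest by fold: Inhba, Nog, Skil, Smad1, Smad5 and Tgfbr3. The start zone share of 15.1% ran from 15.8% to 17.2% under 3 alternatives added after the data were seen. Over all stranded protein-coding genes the share was 11.6% and ran from 11.4% to 13.0% under the same alternatives. Both shares were highest at a fold of at least 4. Depth limits the thin peaks: 15 of the 150 had under 15 IP fragments. The same share over all 38366 peaks is not given here. The median was 45 IP fragments over the member peaks and 29 over the whole list.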
